A study of Catharanthus roseus with 35 samples.

Results

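Tetrahydroalstonine synthase (THAS, CATHA_12642) and serpentine synthase (SS, CATHA_10489) are 2 enzymes of the heteroyohimbine branch of the monoterpenoid indole alkaloid (MIA) pathway of Catharanthus roseus. They were taken by their gene identifiers, as 2 of the 35722 genes with a row in the count files, and were followed through all 35 samples. RNA was measured in protoplasts and leaves of a fluorescence-activated cell sorting (FACS) experiment and in leaves of an indoor and outdoor experiment. In the first, plants of cultivar Little Bright Eye stood in a growth chamber at 25 °C with 16 h of light, and their fully developed leaves gave sorted idioblast protoplasts (n = 3), sorted common mesophyll protoplasts (n = 3), unsorted total protoplasts (n = 3) and whole leaves (n = 2). The replicates came from separate groups of plants, and the study states that its leaf and protoplast samples were paired. The labels do not say that equal replicate numbers mark these pairs. The main tests treated the samples as unpaired, with a replicate block as an alternative. In the second, leaves of pairs 1 to 4 (numbered downwards from the tip of the shoot) were taken from 3 plants grown indoors and 3 plants grown outdoors in direct sunlight. The cultivar was the same, and the indoor plants stood in a chamber likewise at 25 °C with 16 h of light. Growth condition therefore stands for light, temperature and everything else that differed between the sites. The labels name no transgene and no applied agent in either experiment.

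Idioblasts are scattered leaf cells with strong blue autofluorescence in which many alkaloids of this plant accumulate. MIA biosynthesis passes through strictosidine, from which strictosidine β-D-glucosidase (SGD) removes the sugar to leave a reactive aglycone. THAS, a reductase of the medium-chain alcohol dehydrogenase family, reduces the aglycone to tetrahydroalstonine, and the related heteroyohimbine synthase (HYS) gives mainly ajmalicine. SS is a cytochrome P450 that oxidises ajmalicine to serpentine, a fluorescent alkaloid. Geissoschizine synthase (GS) draws on the same aglycone for the branch that leads to catharanthine and vindoline.

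The libraries were of 3 kinds. Smart-seq2 libraries of the FACS experiment held 10263533 to 17625811 counts (11 samples), TruSeq libraries of leaf pairs 1 and 4 held 11567947 to 15122993 (12 samples), and Nanopore libraries of leaf pairs 2 and 3 held 85976 to 732961 (12 samples). Levels are given in CPM, the count relative to the TMM-scaled library size, and groups were compared only within a library kind. The correlations over all Illumina samples, given below, span both Illumina kinds. The files give no gene lengths, so the level of THAS was not compared with that of SS. The labelled cell types were checked on marker genes. The summed level of the idioblast genes DAT and D4H was 1356 to 3453 CPM in idioblasts and 47.6 to 150 CPM in common mesophyll cells, while the summed level of 8 epidermal genes was 177 to 245 CPM in idioblasts, 2472 to 2591 CPM in mesophyll cells and 2026 to 2910 CPM in total protoplasts. Mesophyll protoplasts therefore carried transcripts of epidermal marker genes at about the level of total protoplasts. The summed level of 6 genes of the internal phloem-associated parenchyma (IPAP) was 103 to 179 CPM in idioblasts and 149 to 276 CPM in mesophyll cells. In none of the 3 marker lists was a gene at 0 throughout the idioblast or the mesophyll group.

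THAS transcripts were abundant enough to count in idioblasts and were not seen in common mesophyll cells. The 3 idioblast samples had 261, 232 and 256 counts of THAS, or 18.1, 19.4 and 29.8 CPM, and the 3 mesophyll samples had 0 counts each. The 0 counts allow up to 0.114 CPM over the mesophyll group (3 counts). Against that limit, the pooled THAS level in idioblasts was 187 times as high, a minimum only as far as the mesophyll counts go. The edgeR quasi-likelihood test gave an adjusted p of 4.8e-08 for this difference. A fitted fold change against a group without counts depends on the prior count and is not given for this difference.

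SS behaved the same way at a larger number of counts. The idioblast samples had 1375, 1406 and 1104 counts, or 95.3, 118 and 129 CPM. The mesophyll samples had 0, 1 and 2 counts, or 0, 0.105 and 0.249 CPM, so every idioblast sample stood far above every mesophyll sample. The pooled ratio of idioblast to mesophyll level was 971, with a 95% interval for counting error alone of 332 to 4711. The fitted log2 fold change was 9.86 (SE 0.47, edgeR adjusted p = 1.2e-11). With so few mesophyll counts it moved to 10.81 without the third mesophyll sample and to 9.30 without the first.

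Of all 18339 genes tested, 16.3% were called between idioblasts and mesophyll cells, 7.21% as higher in idioblasts and 9.12% as lower. A call required that the adjusted p did not exceed 0.05 and that the log2 fold change reached 1 in size. Both THAS and SS were among those called higher in idioblasts. The study had already listed both genes among its largest idioblast increases on these same samples, so their direction here is not independent evidence. Counting intervals here and below cover counting error only, since reads without molecular identifiers are not independent molecules.

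In total protoplasts both transcripts were rare. THAS had 3, 9 and 0 counts, or 0.322, 0.799 and 0 CPM, and the log2 fold change of idioblasts over total protoplasts was 5.82 (SE 0.51, edgeR adjusted p = 2.3e-07). It was 7.06 without the second total protoplast sample, which held 9 of the 12 counts, and 5.28 without the third. SS had 38, 29 and 24 counts, or 4.08, 2.57 and 2.60 CPM, with a log2 fold change of 5.25 (SE 0.32, edgeR adjusted p = 5.2e-10). In neither gene did the idioblast samples overlap the total protoplasts. In this comparison 16.0% of the 18339 genes were called, 7.98% higher in idioblasts and 8.06% lower. In bulk samples, fewer cells of a type and less RNA per cell cannot be told apart.

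Mesophyll cells were also compared with total protoplasts, where 1.24% of genes were called and 0.802% were called lower in mesophyll cells. SS was called lower in mesophyll cells, by a log2 fold change of -4.62 (SE 0.60, edgeR adjusted p = 0.00018), or -5.58 without the third mesophyll sample and -4.07 without the first, and total protoplasts held 26.7 times the pooled mesophyll level (95% interval 8.84 to 132). Fitted on these 6 samples alone, the adjusted p of SS was 0.056. The pooled THAS level in total protoplasts was 3.52 times the mesophyll limit. This value makes no allowance for the error of its 12 counts, so it is not a firm minimum. THAS missed the threshold (edgeR adjusted p = 0.105). It passed without the third total protoplast sample, which had no THAS count (adjusted p = 0.041), and with DESeq2 (adjusted p = 0.028).

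**Figure D1:**
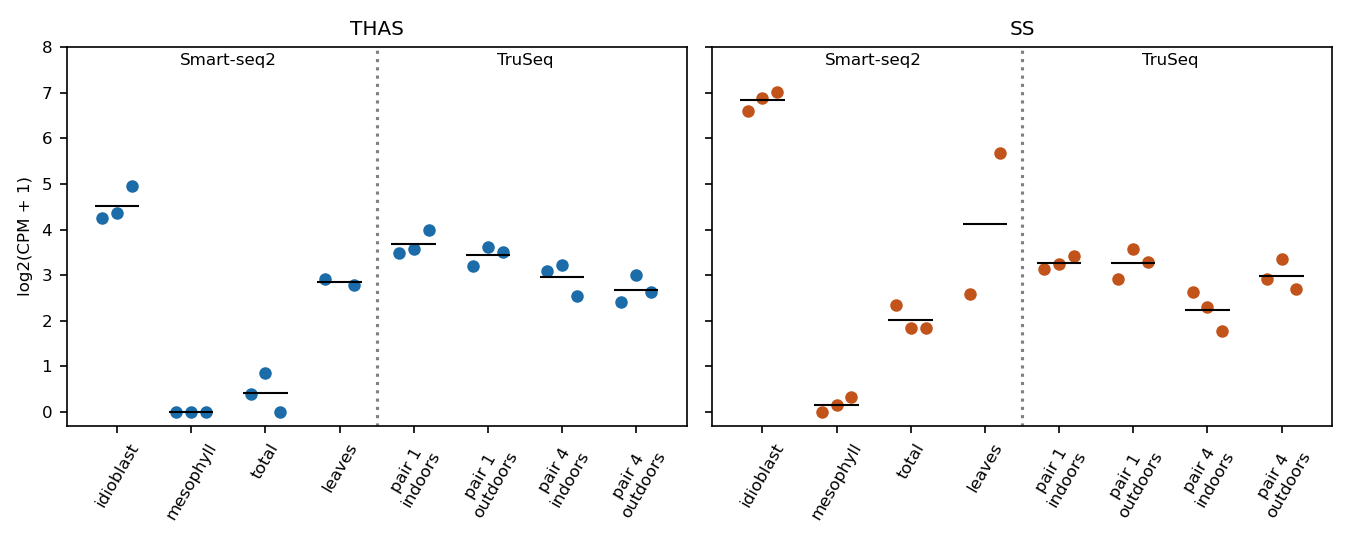
Level of THAS and SS in the 23 Illumina samples as log2(CPM + 1), where each point is a sample and each bar the group mean; the dotted line parts Smart-seq2 from TruSeq libraries. The 3 idioblast samples are the highest for both genes, the mesophyll samples lie at or near 0, and the second leaf sample of the FACS experiment has 50.01 CPM of SS against 4.96 CPM in the first.

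Whole leaves of the FACS experiment held more of both transcripts than the protoplasts made from such leaves. The study left these leaf samples out of its own model, giving their larger spread within the group as the reason. It had discarded 1 leaf sample for degraded RNA, and it extracted leaf RNA with another kit than protoplast RNA. THAS had 97 and 57 counts in the 2 leaf samples, or 6.5 and 5.90 CPM. Total protoplasts were lower by a log2 fold change of -4.0 (SE 0.72, edgeR adjusted p = 0.0014), or -5.29 without the second total protoplast sample. SS had 74 and 483 counts, or 4.96 and 50.01 CPM, and the log2 fold change was -3.20 (SE 0.71, edgeR adjusted p = 0.0029). The SS result rests on the second leaf sample: without it the log2 fold change was -0.71 with an adjusted p of 0.12, and without the first it was -4.05. Of 17533 genes, 50.1% were called here, so a call in this comparison says little about a single gene.

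The 2 leaf samples differed in more than SS. Summed IPAP genes were 310 CPM in the first and 1909 CPM in the second, and summed epidermal genes 770 and 3050 CPM, whereas summed DAT and D4H were 927 and 1030 CPM. THAS, at 6.5 and 5.90 CPM, did not follow SS in this pair. The part of these differences in the SS value was not tested.

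Total protoplasts and leaves were also set against idioblasts gene by gene, as a description. Total protoplasts held 1.66% of the mean idioblast level for THAS (0 to 3.56%, n = 3) and 2.71% for SS (2.26 to 3.58%). For the late vindoline enzymes D4H (desacetoxyvindoline-4-hydroxylase) and DAT (deacetylvindoline-4-O-acetyltransferase) the values were 6.77% (4.64 to 7.89%) and 5.26% (4.46 to 5.68%). The range of both members lay below that of both markers. These ranges vary only over the total protoplast samples, with the idioblast mean held fixed, and idioblast samples had 1279 to 3347 CPM of D4H. D4H also had a mean of 101 CPM in mesophyll cells against 152 CPM in total protoplasts. Its share in total protoplasts therefore cannot be read as that of idioblasts alone. DAT had a mean of 0.083 CPM in mesophyll cells. Leaves held 26.3 and 29.0% of the idioblast level for THAS, 4.36 and 43.9% for SS, 38.5 and 41.6% for D4H and 67.3 and 105% for DAT.

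**Figure D2:**
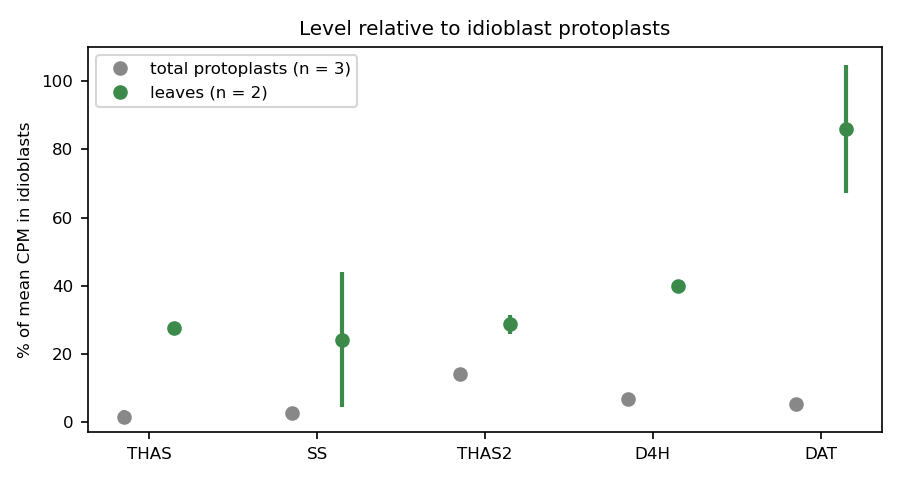
Mean level in total protoplasts (grey) and in leaves of the FACS experiment (green) as a percentage of the mean CPM in idioblasts, for THAS, SS, THAS2, D4H and DAT; points are means and lines run from the lowest to the highest sample. Total protoplasts hold 1.66% for THAS and 2.71% for SS, against 14.1% for THAS2, and the leaf range of SS runs from 4.36 to 43.9%.

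In the leaves of the indoor and outdoor experiment the changes were far smaller. In leaf pair 1, THAS had 10.2, 10.9 and 14.9 CPM indoors and 8.15, 11.2 and 10.4 CPM outdoors. SS had 7.79, 8.50 and 9.77 CPM indoors and 6.59, 10.8 and 8.71 CPM outdoors. The groups overlapped for both genes. The log2 fold changes of outdoors over indoors were -0.22 for THAS (SE 0.24, edgeR adjusted p = 0.55) and 0.058 for SS (SE 0.27, edgeR adjusted p = 0.90), where 6.57% of 17299 genes were called. The sign of the SS value turned when the second outdoor or the first indoor sample was left out (-0.17 and -0.0069).

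In leaf pair 4 the 2 genes had opposite signs. THAS had 7.56, 8.34 and 4.81 CPM indoors and 4.33, 7.01 and 5.19 CPM outdoors, overlapping ranges with a log2 fold change of -0.41 (SE 0.26, edgeR adjusted p = 0.21). SS had 5.23, 3.91 and 2.4 CPM indoors and 6.56, 9.25 and 5.47 CPM outdoors, so every outdoor sample stood above every indoor sample. Its log2 fold change was 0.78 (SE 0.29, edgeR adjusted p = 0.046), which passed the adjusted p but stayed under the fold threshold, so SS was not called. Without the first indoor sample the value was 1.08 (adjusted p = 0.020) and SS was called. The adjusted p rose above 0.05 without the third or second indoor sample (0.146 and 0.095), without the second or first outdoor sample (0.177 and 0.071), with the replicate block (0.053) and with these 6 samples fitted alone (0.066). The values without the third indoor or the second outdoor sample were 0.53 and 0.55. The share of genes called was 17.2%, and 11.4% were called lower outdoors. The outdoor effect was not shown to differ between leaf pairs 4 and 1: the interaction of growth condition and leaf pair was 0.73 for SS (SE 0.40, edgeR adjusted p = 0.29) and -0.19 for THAS (SE 0.35, edgeR adjusted p = 0.77), and 3.99% of genes were called. In the same leaf pair, the idioblast marker D4H fell outdoors (log2 fold change -1.10, SE 0.13, edgeR adjusted p = 8.4e-05), DAT had a log2 fold change of -0.34 (SE 0.22, adjusted p = 0.22), and summed epidermal genes were 540 to 748 CPM indoors and 143 to 255 CPM outdoors. Their part in the SS value was not tested.

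Between leaf pairs, both genes had lower mean levels in the older leaves of pair 4, and with all samples the difference had an adjusted p under 0.05 for THAS in both growth conditions and for SS indoors. Within a growth condition, the same 3 plants gave both leaf pairs. Indoors, the log2 fold change of pair 4 over pair 1 was -0.73 for THAS (SE 0.25, edgeR adjusted p = 0.026) and -1.10 for SS (SE 0.29, edgeR adjusted p = 0.0075). The levels of pair 4 lay below those of pair 1 for both genes without overlap, SS was called lower, and THAS stayed under the fold threshold. For THAS the adjusted p was also lost without the third indoor sample of pair 1 (-0.54, adjusted p = 0.114) or of pair 4 (-0.51, adjusted p = 0.099). The call of SS depended on the third indoor sample of pair 4, which had the lowest SS level of these leaves: without it the value was -0.84 (adjusted p = 0.027). Outdoors, THAS had a log2 fold change of -0.92 (SE 0.25, edgeR adjusted p = 0.0090), again under the fold threshold and without overlap between the groups. It was called without the first outdoor sample of pair 1 (-1.05) or the second outdoor sample of pair 4 (-1.13). Without the second outdoor sample of pair 1 it was -0.74 and the adjusted p was 0.053. SS had -0.37 outdoors (SE 0.28, edgeR adjusted p = 0.28) and its ranges overlapped. Of 17299 genes, 22.3% were called between the leaf pairs indoors (10.8% lower in pair 4) and 22.4% outdoors (13.9% lower), so 1 call for SS in these comparisons is close to what a gene shows in general. The order of group means for THAS ran from pair 1 indoors to pair 1 outdoors, pair 4 indoors and pair 4 outdoors, with every neighbour overlapping. For SS it ran from pair 1 outdoors (8.71 ± 2.12 CPM, SD, n = 3) to pair 1 indoors (8.69 ± 1.00), pair 4 outdoors (7.09 ± 1.94) and pair 4 indoors (3.85 ± 1.42), and only the last step was without overlap.

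**Figure D3:**
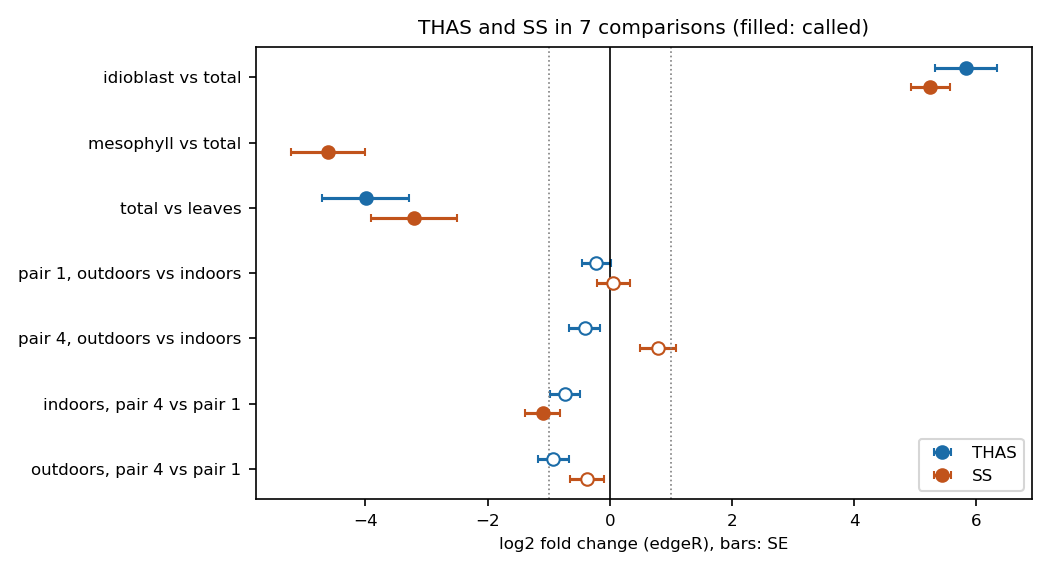
Log2 fold changes of THAS and SS from edgeR in comparisons of protoplasts and leaves, with bars for the SE; filled points were called, and dotted lines mark the fold threshold of 1 on the log2 scale. THAS in mesophyll against total protoplasts is left out because mesophyll had no count, and the protoplast values (5.82 and 5.25 against total protoplasts) lie far outside those between leaves.

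Leaf pairs 2 and 3 were measured too shallowly for either gene. Summed over 3 samples, THAS had 7 counts in pair 2 indoors, 10 in pair 2 outdoors, 7 in pair 3 indoors and 4 in pair 3 outdoors. SS had 3, 6, 1 and 5 counts in the same order. Neither gene passed the filter on low counts, so neither entered the main test. Fitted by edgeR without that filter, SS in pair 3 had a log2 fold change of outdoors over indoors of 1.94 (SE 1.34, adjusted p = 0.59) and THAS one of -0.76 (SE 0.96, adjusted p = 0.76). The pooled ratio of outdoors to indoors was 1.24 (95% counting interval 0.426 to 3.83) for THAS in pair 2 and 0.558 (0.120 to 2.2) in pair 3. For SS it was 1.73 (0.370 to 10.7) in pair 2 and 4.88 (0.547 to 231) in pair 3. All 4 intervals include a ratio of 1, and a difference was not detectable at this depth.

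The balance of the 2 transcripts was followed as the log2 ratio of SS to THAS counts within a sample, with 0.5 added to each count. Only its change between groups can be read, since the 2 genes may differ in length. In idioblasts it was 2.4, 2.60 and 2.11. In leaf pair 4 it was -0.53, -1.09 and -0.99 indoors and 0.60, 0.40 and 0.074 outdoors, so the outdoor samples were all higher, by 1.22 on average. In leaf pair 1 the outdoor samples were higher by 0.25, again without overlap (-0.61 to -0.35 indoors and -0.31 to -0.048 outdoors). Outdoors the ratio was higher in pair 4 than in pair 1 by 0.56, and indoors it was lower by 0.42. These leaf pairs share plants, and within the plants the difference of pair 4 from pair 1 was 0.90, 0.45 and 0.34 outdoors and -0.14, -0.73 and -0.38 indoors, of 1 sign in all 3 plants of each condition. The exact two-sided permutation test over unpaired samples gave p = 0.1 for both differences between growth conditions and for that between leaf pairs outdoors, and 0.2 for that between leaf pairs indoors. Within plants, the exact two-sided test by change of sign gave p = 0.25 in both conditions, the smallest that 3 plants allow. With 3 against 3 unpaired samples 0.1 is the smallest p possible, so no difference could pass the threshold, and adjusted over 6 comparisons the values were 0.2 and 0.3. The ratio in total protoplasts (3.46, 1.63 and 5.61) rests on few THAS counts and did not differ from idioblasts beyond its spread (exact permutation p = 0.4).

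**Figure D4:**
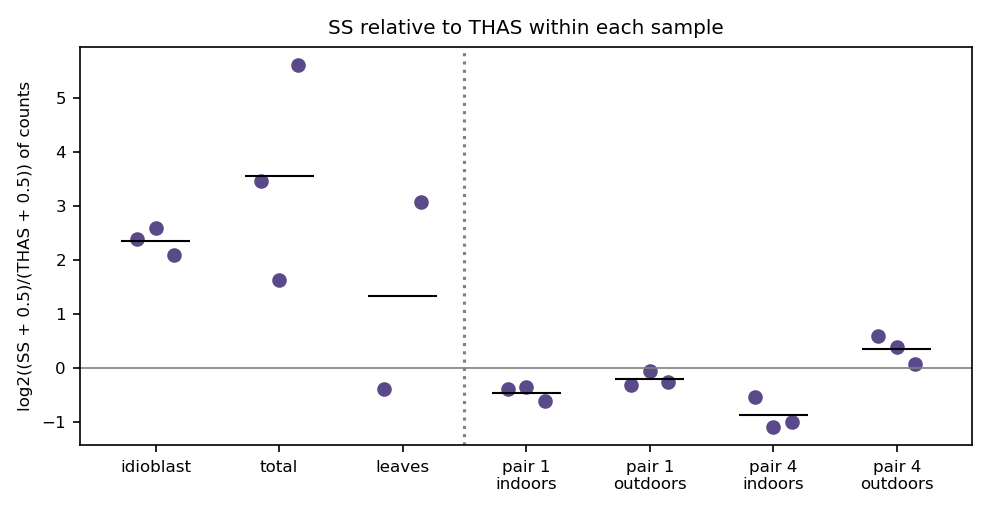
Log2 ratio of SS to THAS counts in each sample, with 0.5 added to both counts, for protoplasts and leaves of the FACS experiment (left of the dotted line) and for leaf pairs 1 and 4 (right); bars are group means. In leaf pair 4 the outdoor samples lie at 0.074 to 0.60 and the indoor samples at -1.09 to -0.53.

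The other enzymes of the branch did not all share the pattern of THAS and SS. Of 6 branch genes tested between idioblasts and mesophyll cells, 3 were called higher and the other 3 were not called, beside 7.21% of all genes called higher. THAS and SS are among those called, and both were known to be high in idioblasts when the list was made. Of the 4 other branch genes only THAS2 was called. The median log2 fold change of all 6 was 2.00 beside -0.023 over all genes. It was the same with THAS at its counting limit. This median and the count of 3 include the members, so they are not separate evidence about the rest of the branch. The third gene that rose was THAS2, a close relative of THAS, with 537 ± 126 CPM in idioblasts and 59.7 ± 2.81 CPM in mesophyll cells (SD, n = 3 each), a log2 fold change of 3.19 (SE 0.16, edgeR adjusted p = 2.5e-11). Unlike THAS, THAS2 kept a measurable level in mesophyll cells. THAS3 had 12.1 ± 6.14 CPM in idioblasts and 13.9 ± 8.25 CPM in mesophyll cells (log2 fold change -0.21, SE 0.40, adjusted p = 0.75). HYS had 1.81 ± 1.72 and 0.958 ± 0.739 CPM (log2 fold change 0.82, SE 0.81, adjusted p = 0.49). Alstonine synthase (AS), which oxidises tetrahydroalstonine, had 0 counts in idioblasts, which allows up to 0.0858 CPM, and 2 counts in mesophyll cells. THAS, THAS2, THAS3 and HYS are related in sequence. The study states no option to count reads that map to several places, so such reads may be missing from these levels. This was not tested.

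Of the genes around strictosidine aglycone, more were lower than higher in idioblasts. Strictosidine synthase (STR) was lower in idioblasts than in mesophyll cells by a log2 fold change of -2.15 (SE 0.23, edgeR adjusted p = 1.0e-06), SGD by -3.66 (SE 0.52, adjusted p = 3.1e-05) and GS2 by -2.98 (SE 0.48, adjusted p = 0.00013). SGD had 0.657 ± 0.283 CPM in idioblasts and 8.84 ± 5.29 CPM in mesophyll cells. Vitrosamine synthase (VAS) was higher, by 1.59 (SE 0.16, adjusted p = 3.5e-07), and GS1 had 0.35 (SE 0.12, adjusted p = 0.032), under the fold threshold. Thus 1 of 5 genes was called higher and 3 lower, beside 7.21% and 9.12% of all genes. The median was -2.15 beside -0.023 over all genes. Against total protoplasts the same numbers were called in both lists, where 7.98% of all genes were called higher and 8.06% lower. Of 14 transcription factors linked to the pathway, 13 were tested between idioblasts and mesophyll cells, and 1 was called, as lower. This is near the share of all genes called lower (9.12%).

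**Figure D5:**
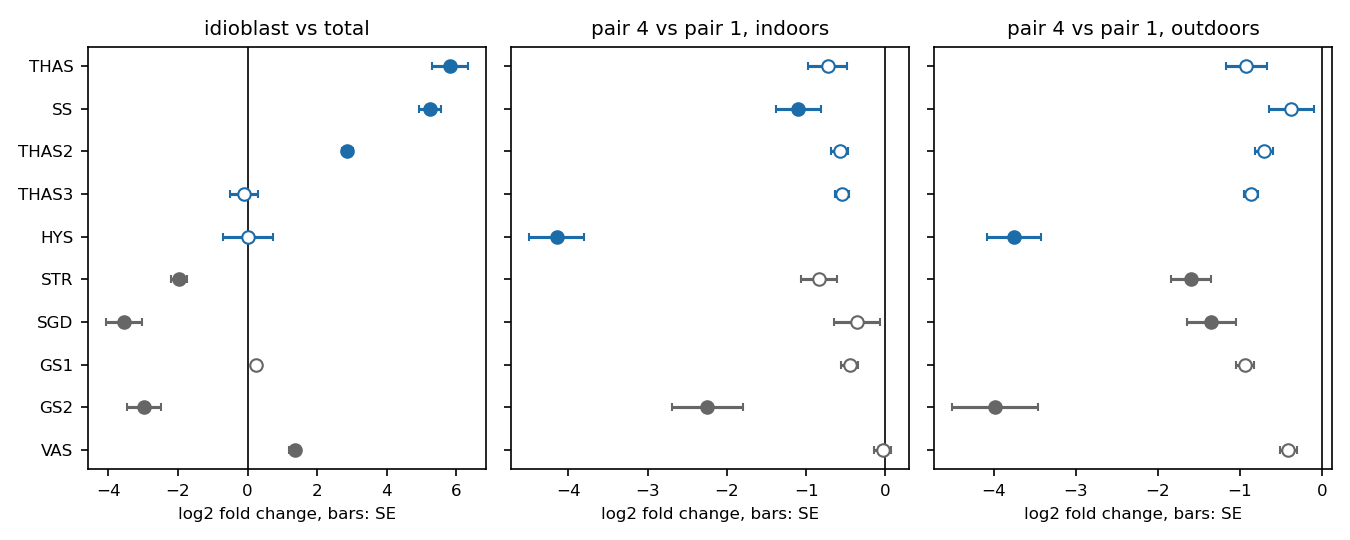
Log2 fold changes from edgeR with bars for the SE for THAS, SS and their branch relatives (blue) and for genes around strictosidine aglycone (grey), in idioblasts against total protoplasts and in leaf pair 4 against pair 1 indoors and outdoors; filled points were called. THAS, SS and THAS2 lie to the right in idioblasts while STR, SGD and GS2 lie to the left, and HYS and GS2 show the lowest values between leaf pairs.

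With leaf age, HYS stood out among the branch genes. It had 81.8 ± 21.2 CPM in pair 1 and 4.33 ± 2.80 CPM in pair 4 indoors (SD, n = 3 each), and 95.4 ± 8.90 and 7.42 ± 0.983 CPM outdoors. Its log2 fold changes of pair 4 over pair 1 were -4.15 indoors (SE 0.35, edgeR adjusted p = 3.0e-05) and -3.75 outdoors (SE 0.33, adjusted p = 1.8e-05). THAS2 had -0.58 indoors (SE 0.11, adjusted p = 0.0010) and -0.71 outdoors (SE 0.11, adjusted p = 0.00029), under the fold threshold like THAS. Of the 6 branch genes, 2 were called lower in pair 4 indoors (SS and HYS) and 1 outdoors (HYS), beside 10.8% and 13.9% of all genes. The medians were -0.65 and -0.78 beside 0.047 and -1.6e-05 over all genes. Between growth conditions 0 of 6 were called in pair 1 and 0 of 6 in pair 4, where 6.57% and 17.2% of all genes were called. With 6 genes, no call is little different from those shares. By unadjusted p alone, under 0.05, SS and THAS2 differed in pair 4 and none of the 6 in pair 1, and DESeq2 called neither THAS nor SS in either leaf pair. Among the 5 genes around the aglycone, STR (-1.48, SE 0.24, adjusted p = 0.00058) and GS2 (-2.21, SE 0.54, adjusted p = 0.0063) were lower outdoors in pair 4.

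The genes whose pattern across samples was nearest to each member were found by Pearson correlation of log2(CPM + 1) among genes with a mean of at least 1 CPM, as a description. The Illumina samples mix Smart-seq2 libraries of the FACS experiment with TruSeq libraries of the other experiment. Each r over all of them therefore also holds the differences between kit and experiment. Over the 23 Illumina samples, the 5 nearest to THAS among 16906 genes were CATHA_28290 (r = 0.97), CATHA_22059 (0.97), THAS2 (0.96), CATHA_1043 (0.96, described as a cysteine protease) and CATHA_3146 (0.96). CATHA_22059 is described as a hypothetical protein in a gene list of the study, which also counts it among its cytochrome P450 candidates of idioblasts. Those nearest to SS were CATHA_3775 (0.96), CATHA_26821 (0.95, named by the study as a nitrate transporter), CATHA_23594 (0.95), CATHA_33556 (0.95) and CATHA_23846 (0.94). Each of these 10 genes had a higher mean level in idioblasts than in mesophyll cells. Choosing genes by likeness to THAS or SS largely fixes this direction in advance, so it is not a separate result. SS ranked 107th for THAS (r = 0.80) and THAS ranked 97th for SS. DAT ranked 15th for THAS (r = 0.93) and 176th for SS (r = 0.69). D4H, the other idioblast marker, had rank 21 for THAS (r = 0.92) and rank 84 for SS (r = 0.81).

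Over the 12 leaf samples of pairs 1 and 4 alone, the nearest genes changed. Those of THAS among 16221 genes were CATHA_35463 (r = 0.94), CATHA_33348 (0.94), CATHA_36579 (0.94), DAT (0.94) and CATHA_9750 (0.93), with THAS2 ranked 18th (0.92). CATHA_9750 is another cytochrome P450 candidate of the study. Those of SS were CATHA_6085 (0.94), CATHA_19452 (0.94), CATHA_31681 (0.93), CATHA_4494 (0.92) and CATHA_16742 (0.92). SS and THAS had r = 0.65 with each other here, and D4H had r = 0.27 with THAS and -0.46 with SS. For neither member was a gene among the 5 nearest in both sets of samples.

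Genes with neighbouring identifier numbers were looked at last. The identifiers give no position, so adjacency in the genome was not established. Over all genes tested between idioblasts and mesophyll cells, 7.21% were called higher and 9.12% lower. The neighbours tested are too few to set against these shares. Among the 10 numbers within 5 of THAS, 9 had a row and 7 were tested between idioblasts and mesophyll cells, and 1 was called higher and 1 lower. The higher one was CATHA_12643, described as O-acetylstemmadenine oxidase, with 86 counts in idioblasts and 0 in mesophyll cells (2.13 ± 2.16 CPM in idioblasts, SD, n = 3, edgeR adjusted p = 0.0010). Among the 10 numbers within 5 of SS, 9 had a row, 5 were tested, and 2 were called higher and 2 lower. CATHA_10488, described as a hypothetical protein, had 49 counts in idioblasts and 0 in mesophyll cells (adjusted p = 0.00081), and CATHA_10493, described as a replication factor C subunit, had a log2 fold change of 2.12 (SE 0.51, adjusted p = 0.0039). CATHA_10490 and CATHA_10491 were lower in idioblasts, by -3.23 (SE 0.48) and -3.52 (SE 0.43). Because no strand option is stated for the counting, reads of overlapping neighbours cannot be told apart from those of the members.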

How the data were processed

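RNA was measured in 35 samples of 12 groups. For the 23 Illumina samples the authors used Trimmomatic 0.39 for trimming, HISAT2 for alignment (C. roseus genome v2) and featureCounts 2.0.1 for counting on the IDIO+ gene models, with no strand option stated, and the deposited values are raw counts. For the 12 Nanopore samples the authors deposited estimated counts (Salmon 1.4.0), which were rounded here to whole numbers before use. Neither unit was normalized before deposit.

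Genes with few counts were removed by filterByExpr, libraries were scaled by TMM (for levels, over all Illumina samples together and over the Nanopore samples apart), and groups were compared with edgeR 4.0.16 (robust quasi-likelihood F test) in R 4.3.3. Protoplasts were compared in a fit that also held leaf pairs 1 and 4, total protoplasts and FACS leaves within their own experiment, and leaf pairs within their library kind. Samples of these other groups share 1 estimate of the spread. Benjamini-Hochberg adjustment ran over all genes tested, and a call needed both an adjusted p no larger than 0.05 and an absolute log2 fold change no smaller than 1. The SE is the log2 fold change over the root of F. Counting limits use 3 counts, and intervals are exact at 95%. Ratios were compared by exact permutation (SciPy 1.17.1).

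The members, gene lists and rules were chosen with earlier results of these data known. Values are given for the members, the genes of the branch and around the aglycone, the 5 nearest genes by correlation, and genes with an identifier number within 5. Gene names and descriptions were taken from the study's tables and text, and 0 identifiers matched the available RefSeq gene table, so no sequence is shown. The fits were tested on simulated counts. Alternatives were DESeq2 1.42.0, its size factors, no low-count filter, the compared groups alone, FACS leaves added, a replicate block, other pseudocounts and each sample left out. In all 24 leaf samples the plant number in the column header matched the replicate number, so leaf pairs of one growth condition share plants. Among protoplasts, equal replicate numbers correlated at 0.12 to 0.27 between idioblasts and mesophyll cells, 0.12 to 0.27 between idioblasts and total protoplasts and 0.06 to 0.26 between mesophyll cells and total protoplasts (deviations from group means). Unequal replicate numbers correlated at -0.24 to 0.044, -0.20 to 0.047 and -0.23 to 0.15 in the same order, so only the last ranges overlapped. No replicate pair was identical within sampling noise (at least 2.04 chi-square units per gene). The 2 leaf samples of the FACS experiment differed most, at 232 units per gene.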

Additional observations from a re-analysis of the deposited data

How the results depend on the processing

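Among 223 alternative values of the member fold changes, 212 kept their sign and their side of the threshold. In mesophyll cells against total protoplasts, THAS was called with DESeq2 (-4.20) and SS was lost with the compared groups alone (-4.56), and the number of genes called was 490 with DESeq2, 131 with FACS leaves added and 46 with the compared groups alone, against 227. Mesophyll cells had no THAS count, so every fitted THAS value in that comparison depends on how the fit treats 0 counts. Such values do not measure the size of the difference. At the counting limit the log2 value was -1.81, with no allowance for the error of the THAS counts in total protoplasts. With 1 sample left out, the log2 fold changes in that comparison were -6.02 to -4.23 for THAS and -5.58 to -4.07 for SS. In total protoplasts against leaves they were -5.29 to -3.55 for THAS and -4.05 to -0.71 for SS. For SS they were -0.17 to 0.22 outdoors in pair 1, 0.53 to 1.08 outdoors in pair 4, -1.40 to -0.84 in pair 4 against pair 1 indoors and -0.60 to -0.094 outdoors. For THAS they were -1.13 to -0.74 in pair 4 against pair 1 outdoors and -0.41 to 0.039 for the interaction. The changes of SS between total protoplasts and leaves, and of SS and THAS between leaf pairs, came from leaving out 1 sample; the other causes were not tested. The replicate block, paired by replicate number or by plant within a growth condition (the latter chosen after seeing the data), changed no call in 30 values of the Illumina samples; for example SS in pair 4 against pair 1 indoors was -1.11 with the replicate block and -1.13 with plants as blocks, against -1.10. In leaf pairs 2 and 3 the members had values only without the low-count filter: 10 by edgeR (smallest unadjusted p = 0.13, adjusted p = 0.59), 16 by edgeR with a replicate block, added after seeing the data (0.13 and 0.67), and 10 by DESeq2 (0.19 and 1.0), of which 0 had an unadjusted p under 0.05. The order of groups was the same with DESeq2 size factors in both Illumina library kinds. Depth limits THAS in total protoplasts (12 counts in all) and both genes in Nanopore libraries.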

Other observations

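The range of values from leaving out 1 sample for total protoplasts as a share of the idioblast level was 0.717 to 2.5% for THAS and 2.27 to 2.93% for SS. The log2 ratio of SS to THAS in leaf pair 4 remained higher outdoors by 1.10 to 1.39 when any 1 of the 6 samples was left out, and in leaf pair 1 by 0.17 to 0.30.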
